A study of Mus musculus with 309 samples.

Results

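The genes described here are 10 immune checkpoint receptors and ligands: the receptors Pdcd1, Ctla4, Lag3, Havcr2, Tigit and Icos, and the ligands Cd274, Pdcd1lg2, Cd80 and Cd86. They were chosen by name, and all 10 stood among the 55291 gene symbols of the deposited count table. For each gene the untreated level in every tumour model and the change in every model with every treatment were examined.

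A T cell that meets its antigen needs a further signal, which CD28 gives when it binds CD80 or CD86 on an antigen-presenting cell. Checkpoint receptors appear on the T cell after activation and dampen it, CTLA-4 by taking CD80 and CD86 from CD28, and PD-1 (the product of Pdcd1) when it binds PD-L1 (Cd274) or PD-L2 (Pdcd1lg2). Antibodies that block PD-1 or CTLA-4 are used against triple-negative breast cancer and other tumours. LAG-3, TIM-3 (Havcr2) and TIGIT are further inhibitory receptors, and ICOS is a co-stimulatory relative of CD28. PD-L1 and PD-L2 are induced by interferon gamma, and PD-L1 can be made by tumour cells as well as by myeloid cells.

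Poly(A) RNA was sequenced from 309 mouse mammary tumours of 24 models, which its title ties to triple-negative breast cancer, to profile genetically diverse models under treatment. There were 64 untreated tumours (18 models), 65 tumours treated with trametinib, an inhibitor of the kinase MEK (22 models), and 66 with erlotinib, an inhibitor of the receptor EGFR (22 models). Another 66 tumours had been given carboplatin, which damages DNA, plus paclitaxel, which binds microtubules (22 models), and 48 had been given anti-PD1 plus anti-CTLA4 antibodies (16 models). Most of the 100 groups of model and treatment held 3 tumours. The models are given by name alone, without strain, allele, age, dose or time of treatment. As background, MMTV-PyMT and MMTV-Neu carry an oncogene driven by a mammary tumour virus promoter, C3-TAG carries SV40 T antigen, and 4T1 and E0771 are transplanted mammary carcinoma lines. T11-APOBEC, KPB25L-APOBEC and KPB25L-UV share the names of T11 and KPB25L. E0771 has a single untreated tumour, so its changes rest on that tumour, and 3 tumours of KPB25L-UV under chemotherapy have library names that begin with KPB25L. The source of each tumour, such as separate animals, is not named, so p-values measure only the spread between these tumours, which may be partly technical.

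Library totals ranged from 12074737 to 226179812 counts, with medians of 76879099 in untreated tumours, 103431131 with chemotherapy, 112915527 with antibodies, 39264654 with trametinib and 34281331 with erlotinib. Levels are given as CPM, the count of a gene relative to the scaled total of its library. In bulk tumour RNA, fewer cells of a type and less RNA per cell cannot be told apart. Cd3e, part of the T cell receptor complex, ranged from 0 to 47.7 CPM over the 309 tumours, and Csf1r, the macrophage growth factor receptor, had a median of 130 CPM (6.98 to 812). Epcam, which marks epithelial cells, ranged from 0.0986 to 1890 CPM with a median of 392, so an epithelial marker was nearly absent from some tumours labelled mammary. The summed level of 10 skeletal muscle genes passed 10000 CPM in 4 tumours. The treatment arms of a model often lay far apart in the running library numbers, whose meaning the labels do not give. Arms within 100 numbers of each other were available in 11 of 16 models for trametinib and for erlotinib, 7 of 16 for chemotherapy and 3 of 12 for the antibodies.

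On the mm10 build (GENCODE M21), Ctla4 (chr1:60887000-60915832) and Icos (chr1:60977927-61000320) are neighbours on the plus strand, and Pdcd1 (chr1:94038305-94052553) lies on the minus strand of the same chromosome. The genes of both PD-1 ligands adjoin on the plus strand, Cd274 at chr19:29367455-29388095 and Pdcd1lg2 at chr19:29410919-29471161. Cd80 (chr16:38455561-38496335, plus), Cd86 (chr16:36603869-36666081, minus) and Tigit (chr16:43648867-43664146, minus) share a chromosome. Lag3 (chr6:124904361-124911705) is on the minus strand and Havcr2 (chr11:46454935-46481255) on the plus strand. Pdcd1lg2 overlaps A930007I19Rik on the other strand, Ctla4 overlaps the pseudogene Rpl18-ps1 on its own strand, and Icos overlaps Gm37039 on its own strand. The use of strand in counting is not stated, so reads of such pairs may not be separated.

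RefSeq gave a promoter window, from 250 bases before to 50 after the gene start on GRCm38.p6, for 7 of the 10 genes; Cd86, Lag3 and Icos were not matched. The windows of Cd274, Cd80, Havcr2 and Tigit are printed because these genes carry the treatment results below: Cd274 was higher with 3 of the 4 treatments, and Cd80, Havcr2 and Tigit rose with chemotherapy and were lower with antibodies than with chemotherapy. Capitals mark the AP-1 motif TGANTCA. The coordinates of the windows are chr19:29367188-29367487 for Cd274, chr16:38458683-38458982 for Cd80 and chr11:46454681-46454980 for Havcr2 on the plus strand, and chr16:43664135-43664434 for Tigit on the minus strand. The RefSeq starts of Cd80 and Ctla4 differ from those of GENCODE above, and both windows lie inside the GENCODE gene.
Cd274: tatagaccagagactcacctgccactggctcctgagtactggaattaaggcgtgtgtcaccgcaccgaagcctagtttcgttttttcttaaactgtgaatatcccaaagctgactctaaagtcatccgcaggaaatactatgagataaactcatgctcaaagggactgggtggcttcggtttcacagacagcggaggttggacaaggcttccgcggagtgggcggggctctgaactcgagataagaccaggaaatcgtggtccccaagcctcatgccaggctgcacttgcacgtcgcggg
Cd80: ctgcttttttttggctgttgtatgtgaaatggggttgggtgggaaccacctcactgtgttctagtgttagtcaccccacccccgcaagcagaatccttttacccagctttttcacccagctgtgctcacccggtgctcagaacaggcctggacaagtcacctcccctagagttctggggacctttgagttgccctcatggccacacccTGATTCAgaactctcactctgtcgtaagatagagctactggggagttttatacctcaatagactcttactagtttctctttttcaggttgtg
Havcr2: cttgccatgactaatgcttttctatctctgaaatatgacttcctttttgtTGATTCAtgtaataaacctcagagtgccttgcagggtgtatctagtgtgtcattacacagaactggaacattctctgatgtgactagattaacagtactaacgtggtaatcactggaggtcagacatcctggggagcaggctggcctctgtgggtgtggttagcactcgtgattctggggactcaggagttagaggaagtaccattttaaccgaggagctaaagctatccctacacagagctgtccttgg
Tigit: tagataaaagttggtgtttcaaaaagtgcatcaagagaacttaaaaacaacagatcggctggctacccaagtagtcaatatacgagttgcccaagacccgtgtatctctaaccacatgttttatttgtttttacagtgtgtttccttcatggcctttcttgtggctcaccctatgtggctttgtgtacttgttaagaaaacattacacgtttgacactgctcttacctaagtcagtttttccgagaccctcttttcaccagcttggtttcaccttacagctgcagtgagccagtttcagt

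Both strands of the windows were searched for 3 motifs. TGANTCA, which reads the same on both strands, stood in the windows of Cd80 and Havcr2 and in 7.81% of 32851 promoter windows of the same length. The interferon-gamma activated site TTCNNNGAA stood in none of the 7 windows and in 8.3% of all windows. The interferon-stimulated response element, as GAAA followed by any 2 bases and GAAA again, stood in none of the 7 and in 3.44% of all. A motif that is absent from a window is absent from those letters only, and a match is a description of the sequence.

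Levels were compared between genes after division by exon length, as CPM per kilobase in untreated tumours of the 16 models with at least 3. Havcr2 had the highest level, with a median over models of 5.09 CPM per kilobase (1 to 16.7). Cd86 (2.64), Lag3 (2.47) and Cd274 (1.94 CPM per kilobase) followed. Tigit (0.997) and Cd80 (0.763) were lower at the median, but the level of Tigit ran from 0.0852 to 18.6 CPM per kilobase, and its highest model exceeded that of any other gene of the set. Pdcd1 (0.323), Ctla4 (0.227), Icos (0.189) and Pdcd1lg2 (0.119 CPM per kilobase) had the lowest medians. The counts behind these low levels were small: Pdcd1lg2 reached 10 counts in 192 of the 309 tumours, Tigit in 225 and Ctla4 in 230, while Havcr2, Cd86 and Lag3 reached 10 counts in all 309. A count of 0 allowed a level of up to 3 counts, which was 0.0137 to 0.268 CPM over the libraries (median 0.0396), for counting error only.

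Untreated models differed in all 10 genes (edgeR's quasi-likelihood F-test over 62 tumours of 16 models, Benjamini-Hochberg adjusted p from 8.16e-22 for Havcr2 to 3.16e-08 for Pdcd1lg2). This is close to the background, since 98% of the 22779 genes tested differed between untreated models. MMTV-Neu, MMTV-PyMT, KPB1-A and KPB1-B were the 4 lowest models for Cd274, Cd80, Cd86, Havcr2, Tigit and Icos, and also for Pdcd1. K14-TRT was among the 4 highest models for 7 of the genes, and T11-APOBEC and p53RB-626 for 6 each. KPB1-A was an exception among the low models, as the highest for Ctla4 and among the 3 highest for Lag3. E0771, with 1 untreated tumour, is not in these rankings. That tumour had Pdcd1 at 13.6 CPM and Lag3 at 20.8 CPM, above every untreated tumour of the 16 models. It had Icos at 5.36 CPM and Ctla4 at 4.38 CPM.

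Pdcd1, whose product PD-1 marks activated and exhausted T cells, was highest in K14-TRT, with a lowest, median and highest level of 1.1, 4.66 and 11.8 CPM over 9 tumours. In p53RB-626, the next model, its 6 tumours lay at 1.67 to 3.05 CPM, inside the range of K14-TRT. In KPB1-B, the lowest model, the 6 tumours had 0 to 0.133 CPM, below all of these. The mean was 4.79 ± 3.12 CPM in K14-TRT (SD, n = 9) and 0.0664 ± 0.0437 in KPB1-B (SD, n = 6), a ratio of 72.2. Cd3e ran from 0.676 to 7.26 CPM in the K14-TRT tumours and from 1.46 to 3.57 CPM in those of p53RB-626.

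Ctla4, which encodes the receptor that competes with CD28, was highest in KPB1-A, at 9.19, 2.74 and 3.15 CPM in its 3 untreated tumours. Of the untreated tumours of the other 15 models, 1 in K14-TRT (2.76 CPM) passed the lowest of these. The same KPB1-A tumours held almost no Cd3e (0.0274, 0.012 and 0.0124 CPM) and had Icos at 0.0547, 0.048 and 0.0619 CPM. Their Lck, a kinase of T cells, was at 56.1, 63.3 and 60.4 CPM, against a median of 5.65 CPM over all 309 tumours. The other 9 genes of the T cell list summed to 0.711, 0.709 and 1.11 CPM there. The overlapping pseudogene Rpl18-ps1 stood at 0.643, 1.08 and 0.929 CPM, and whether it shares reads with Ctla4 was not tested. In the treated arms of KPB1-A, Ctla4 ran from 0.49 CPM with trametinib to 6.7 CPM with the antibodies. K14-TRT (1.82 ± 0.756 CPM, SD, n = 9) was second, and MMTV-Neu, at 0.016 ± 0.00601 CPM (SD, n = 3), was lowest.

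Tigit, whose product binds the poliovirus receptor, was highest in the KPB25L pair. KPB25L-UV had 16.1, 8.7 and 26.6 CPM, and KPB25L had 2.47, 33.3 and 4.44 CPM, so the models overlapped and 1 KPB25L tumour set the mean of 13.4 ± 17.2 CPM (SD, n = 3). Every tumour of KPB25L-UV exceeded all tumours of K14-TRT, which ran from 0.414 to 3.94 CPM although K14-TRT had the highest mean Pdcd1 of the 16 models. MMTV-Neu was lowest at 0.0783 ± 0.0228 CPM (SD, n = 3). The single untreated tumour of E0771 had 15.4 CPM of Tigit. The summed T cell genes averaged 16.8 CPM in untreated KPB25L-UV, 12.9 CPM in KPB25L and 32.3 CPM in K14-TRT. Mean Tigit was 102%, 104% and 6.32% of these sums, and which cells held it was not tested.

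**Figure D1:**
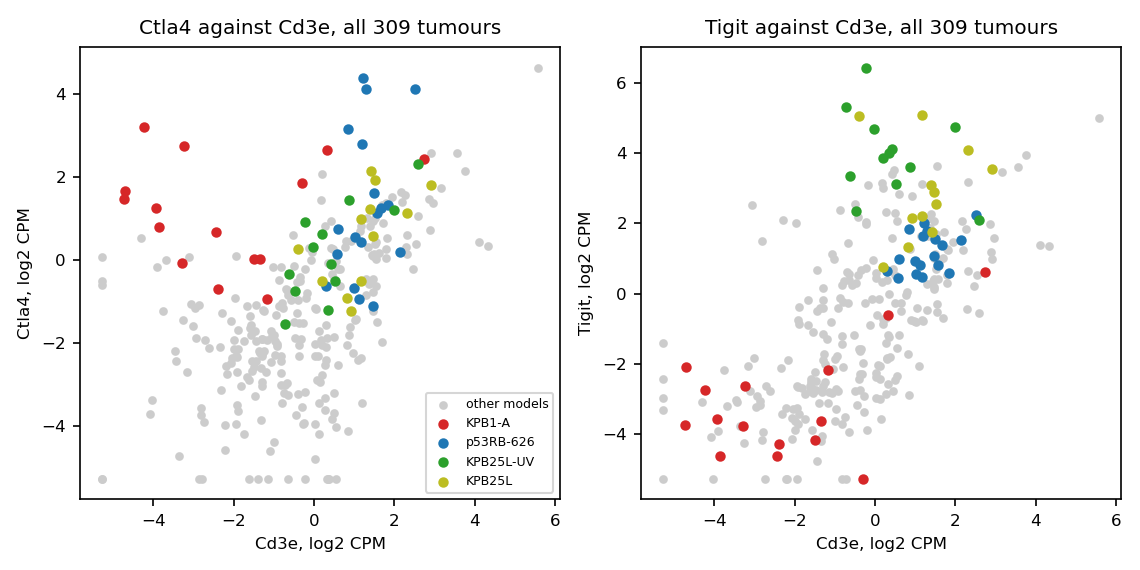
Levels of Ctla4 (left) and Tigit (right) against Cd3e in each of the 309 tumours, in log2 CPM, with 4 models coloured and all other models in grey. Untreated KPB1-A tumours combine Ctla4 of 2.74 to 9.19 CPM with Cd3e of at most 0.0274 CPM, and the highest Tigit values are in KPB25L-UV and KPB25L tumours.

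Icos, which encodes the co-stimulatory receptor of activated and regulatory T cells, was highest in p53RB-626 (3.95 to 5.34 CPM over 6 tumours, median 4.82). K14-TRT followed with 1.38 to 4.89 CPM and a median of 2.42 over 9 tumours, and overlapped it. MMTV-PyMT was lowest at 0.0386 ± 0.0162 CPM (SD, n = 3), and the ratio of the highest to the lowest mean was 123.

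Lag3, which encodes a receptor for MHC class II, had the smallest spread between models, with a ratio of 6.34. Among the 16 models it was highest in 2208 (8.41, 9.46 and 12 CPM), 2153 (6.47, 7.16 and 10.1 CPM) and KPB1-A (7.93, 6.57 and 9.05 CPM). All 3 were among the 6 lowest models for Tigit, and their tumours overlapped each other in Lag3. KPB1-B had the lowest mean, 1.57 ± 0.52 CPM (SD, n = 6).

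Havcr2, which encodes TIM-3 of T cells, macrophages and dendritic cells, was highest in p53RB-626, where the 6 tumours ran from 39.8 to 54.2 CPM. T12 had 28.2, 42.9 and 44.9 CPM, so that 2 of its 3 tumours lay inside that range. T12 was among the 6 lowest models for Icos (0.208, 0.223 and 0.449 CPM) and had Csf1r at 331, 412 and 480 CPM, above the median of 130 CPM over all tumours. KPB1-B was lowest for Havcr2 at 2.73 ± 0.403 CPM (SD, n = 6).

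Among the ligands, Cd274 was highest in T11-APOBEC (15.5, 23.1 and 13.6 CPM) and K14-TRT (11.3 to 33.6 CPM, median 14.3, n = 9), whose means of 17.4 ± 5.02 and 17.2 ± 6.99 CPM (SD) did not differ beyond their spread. MMTV-PyMT was lowest, at 1.81, 1.53 and 1.4 CPM. The single untreated E0771 tumour had 79 CPM. Pdcd1lg2 was highest in T11-APOBEC, at 1.25, 2.17 and 0.903 CPM, and lowest in MMTV-Neu, at 0, 0.0302 and 0 CPM.

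Cd80 was highest on average in C3-TAG, at 1.63, 6.83, 5.73 and 35.5 CPM, and the mean of 12.4 ± 15.5 CPM (SD, n = 4) rested on 1 tumour. KPB25L had 5.75, 9.62 and 4.44 CPM, inside the C3-TAG range. Its partner Cd86 was highest in KPB25L (21.3, 14.7 and 24.8 CPM) and KPB25L-UV (16, 14.6 and 16.7 CPM), which overlapped. MMTV-Neu was lowest for Cd80 (0.276, 0.332 and 0.174 CPM) and MMTV-PyMT for Cd86 (1.71, 2.09 and 2.49 CPM).

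**Figure D2:**
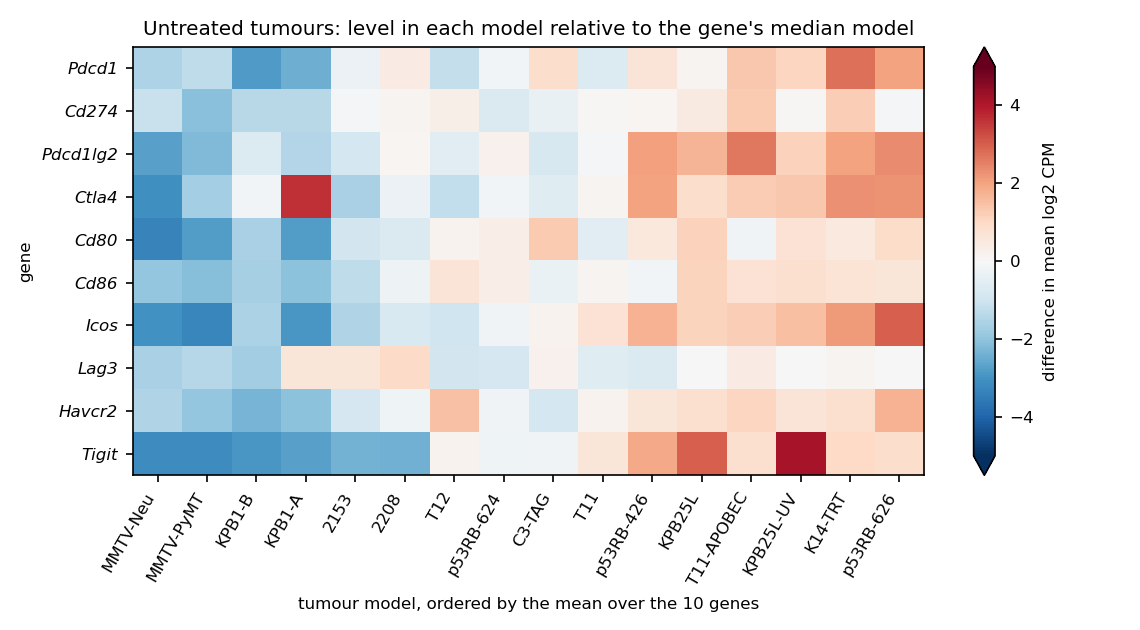
Mean log2 CPM of each gene in untreated tumours of 16 models, shown as the difference from that gene's median model, with models ordered by the mean over the 10 genes. Blue cells on the left are the low MMTV-Neu, MMTV-PyMT, KPB1-B and KPB1-A tumours, and the dark red cells are Ctla4 in KPB1-A (mean 5.03 CPM) and Tigit in KPB25L-UV (mean 17.1 CPM).

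Each treatment was then compared with the untreated tumours of the same models, with the model as a factor. The 4 comparisons share these untreated tumours, so their results are not independent of each other.

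Carboplatin plus paclitaxel, the DNA-damaging and microtubule-binding pair, was followed by higher levels of 8 of the 10 genes (48 treated and 54 untreated tumours of 16 models), and the other 2, Pdcd1lg2 and Lag3, did not pass the test. In the same comparison 14.3% of 18401 genes were called higher and 24.3% were called in either direction. The median log2 change was 0.96 over the 10 genes and 0.01 over all genes tested.

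Of the receptors, Pdcd1 had a median of 0.946 CPM with chemotherapy (0.0293 to 13) and 0.481 CPM in untreated tumours (0 to 13.6), and its log2 change was 1.13 ± 0.247 (SE, adjusted p = 0.000507, higher in 13 of 16 models). Tigit had medians of 2.06 and 0.837 CPM and a change of 1.12 ± 0.187 (adjusted p = 9.72e-06, 14 of 16 models). Icos had medians of 1.02 and 0.553 CPM and a change of 1.04 ± 0.275 (adjusted p = 0.00367, 13 models). The ranges of the arms overlapped for all of these genes, and the test rested on differences within models. Ctla4 rose by 0.9 ± 0.289 (adjusted p = 0.0162, 11 models) and Havcr2 by 0.33 ± 0.117 (adjusted p = 0.0287, 10 models). Lag3 changed by 0.31 ± 0.148 (adjusted p = 0.111, higher in 12 models).

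Of the ligands, Cd80 had a median of 4.09 CPM with chemotherapy (0.45 to 129) and 2.59 CPM in untreated tumours (0.174 to 35.5), and rose by 1.15 ± 0.172 on the log2 scale (SE, adjusted p = 1.07e-06, 14 of 16 models). All treated tumours exceeded all untreated ones in MMTV-Neu, MMTV-PyMT, p53RB-426 and p53RB-624. Cd274 had medians of 10.6 and 6.35 CPM and rose by 0.91 ± 0.146 (adjusted p = 4.55e-06, 14 models). Cd86, which shares its receptors with Cd80, rose by 0.44 ± 0.133 (adjusted p = 0.0115, 11 models). Pdcd1lg2 changed by 1 ± 0.405 (adjusted p = 0.0592, 11 models).

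E0771 went the other way in all 10 genes. Its single untreated tumour had Pdcd1 at 13.6 CPM and its 3 treated tumours at 0.942, 1.73 and 2.65 CPM. Cd274 was at 79 CPM in that untreated tumour and at 26.8, 36.8 and 50.7 CPM with chemotherapy. The summed T cell genes of these tumours were 127 CPM untreated and 18.3, 16 and 37.1 CPM treated.

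Markers of other cells moved in the same comparison. Of 10 T cell genes, 7 rose with chemotherapy, while Cd3e itself had a log2 change of 0.72 (adjusted p = 0.0745). The summed T cell level was 4.09 to 117 CPM with chemotherapy (median 17.9) and 3.21 to 127 CPM in untreated tumours (median 16.1). Of 10 CD8 and NK cell genes, 9 rose, among them Prf1 (1.79) and Cd8a (0.84, adjusted p = 0.0232), and 7 of 10 macrophage genes rose, with Csf1r at 0.08. Of the regulatory T cell genes, 3 of 8 rose, and Foxp3 had a change of 0.7 (adjusted p = 0.0563). With the T cell level as a covariate Cd274 (0.57), Cd80 (0.8) and Tigit (0.8) were called higher, and with the macrophage level Pdcd1, Cd274, Cd80 and Tigit were. Both covariates also called fewer of all genes than the 4468 of 18401 in the main test, with the numbers given under the processing below. The part of these cells in the changes was not tested further.

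Among 17 other genes of the B7, CD28, nectin and TIM families that were tested, 5 rose with chemotherapy: Cd96 (log2 change 1.03, adjusted p = 8.62e-05), a partner of Tigit in binding the poliovirus receptor, Lgals9 (0.43, adjusted p = 0.000146), which encodes galectin-9, Cd244a (0.83), Cd200r1 (0.69) and Cd160 (0.81). Of 10 genes of the interferon gamma axis, 4 rose, with Gbp2 at 0.7. Ifng itself had too few counts to be tested.

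A test on 1 difference per model with limma, which measures the spread between models, called 0 of the 10 genes and 0 of 18401 genes, although 6 of the 10 and 2836 of all genes had an unadjusted p under 0.05 (Tigit adjusted p = 0.123, Cd80 0.126). In the 7 models whose arms lay close in library number, Cd80 (1.04, adjusted p = 0.0176) and Tigit (1.05, adjusted p = 0.0189) were called, beside 1623 of 17627 genes.

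**Figure D3:**
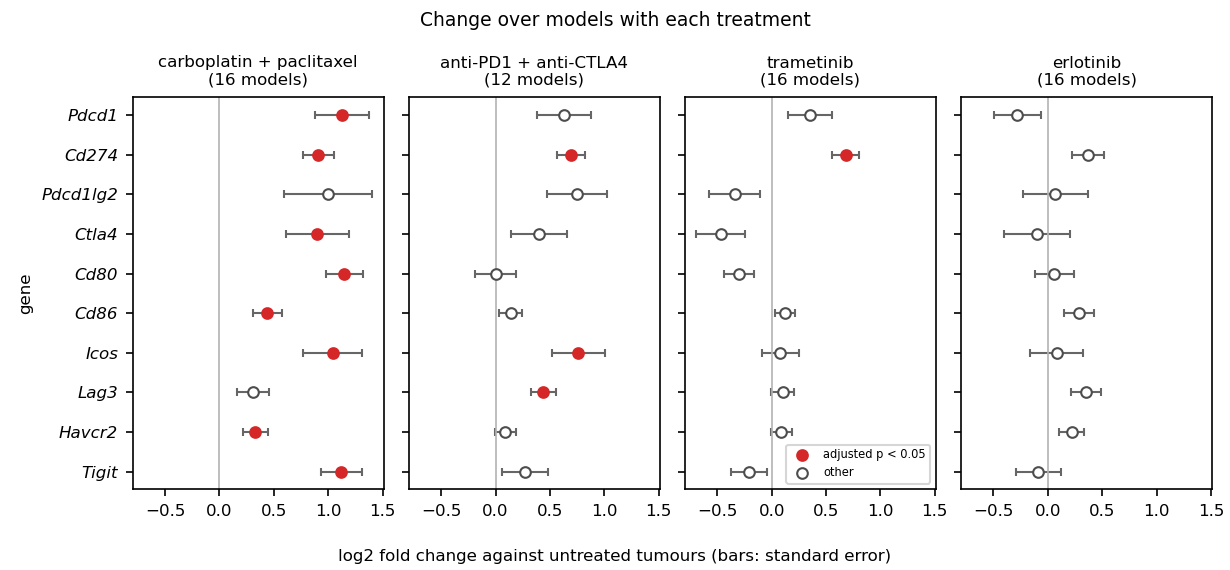
Log2 fold change of each gene against untreated tumours with each treatment, pooled over models, with bars of 1 standard error and filled red points where the adjusted p is under 0.05. Chemotherapy has 8 filled points, the antibodies 3 (Cd274, Icos and Lag3), trametinib 1 (Cd274) and erlotinib 0.

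The response to chemotherapy differed between models for Pdcd1lg2, Ctla4, Lag3, Havcr2 and Icos, 5 of the 10 genes, in the 15 models with at least 2 tumours in each arm, against 64.1% of all genes. Within single models, 38 of 150 gene-by-model tests were called (25.3%, 36 of them higher), against 9.62% of the tests over all genes.

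In MMTV-PyMT, where 22.8% of 28928 genes were called, 4 of the 10 rose. Cd80 was at 0.315, 0.365 and 0.475 CPM in untreated tumours and at 1.85, 2.55 and 2.4 CPM after chemotherapy, a log2 change of 2.49 (adjusted p = 0.000182). Havcr2 went from 2.95, 3.03 and 5.01 to 10.3, 9.95 and 11 CPM (1.45, adjusted p = 0.000255). For both genes every treated tumour exceeded every untreated one. Cd86 (1.44) and Icos (3.3) were called as well. The macrophage sum moved with them, from 385 to 583 CPM untreated to 949 to 1040 CPM treated, without overlap.

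In C3-TAG, where 29.4% of genes were called, 6 of the 10 rose. Cd274 was at 5.24, 4.28, 7.36 and 4.81 CPM in untreated tumours and at 15.9, 14.6 and 23.7 CPM after chemotherapy (log2 change 1.66, adjusted p = 0.00232), and Tigit went from 0.539, 0.879, 1.17 and 0.628 to 2.37, 8.05 and 4.16 CPM (2.52, adjusted p = 0.000877). Neither gene's arms overlapped. Cd80 reached 22.8, 129 and 30.9 CPM (2.21 ± 0.472, adjusted p = 7.47e-05), and 1 untreated tumour at 35.5 CPM lay inside that range. The tumour with 129 CPM had Epcam at 5.86 CPM, against 596 and 673 CPM in the other two, and without it the change of Cd80 was 0.84 (adjusted p = 0.335).

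In KPB1-A, where 7.96% of genes were called, 8 of the 10 rose, and every one of these calls was lost without replicate 1. That tumour had Pdcd1lg2 at 50.8 CPM, Lag3 at 51.2 and Cd274 at 31.3 CPM, against 0.0284 and 0.00978, 7.97 and 5.62, and 1.62 and 2.21 CPM in the other two. It also had Cd3e at 6.64 CPM (0.0426 and 0.0391 in the others), a macrophage sum of 5100 CPM (347 and 327) and a muscle sum of 11500 CPM (1450 and 759). Without it the log2 changes were -1.65 for Pdcd1lg2, -0.16 for Lag3, -0.36 for Cd274 and -0.38 for Pdcd1.

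In 2153, where 18.7% of genes were called, 7 of the 10 rose, with Lag3 at 4.96, 21.2 and 53.5 CPM after 6.47, 7.16 and 10.1 CPM in untreated tumours. The tumours overlapped, and Cd3e stood at 0.235, 3.46 and 6.05 CPM in the same treated tumours. All of these calls were lost without replicate 3, and all but that of Lag3 without replicate 2. In KPB1-B, where 12.3% of genes were called, 6 of the 10 rose, among them Havcr2, which had 2.14 to 3.12 CPM in 6 untreated tumours and 8.06, 4.04 and 7.7 CPM after treatment (1.27, adjusted p = 0.000246), with no overlap.

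In p53RB-626, where only 1.29% of genes were called, Ctla4 rose by 3.15 ± 0.681 on the log2 scale (adjusted p = 0.0031). Its 6 untreated tumours had 1.08 to 2.47 CPM (median 1.54), and the 3 treated tumours had 17.3, 20.9 and 6.95 CPM, all above them. Cd3e in these treated tumours was 2.44, 2.29 and 2.25 CPM, inside the untreated range of 1.46 to 3.57 CPM. Pdcd1 was at 10.1, 13 and 9.27 CPM and Icos at 11.1, 12.3 and 9.23 CPM, also without overlap with the untreated tumours, but neither was called over all genes in this model. Without replicate 2 the change of Ctla4 was 2.95 and its adjusted p 0.163.

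In T11, where 12.5% of genes were called, Ctla4 and Icos fell. Icos was at 0.499, 0.673, 2 and 1.34 CPM in untreated tumours and at 0.156, 0.231 and 0.206 CPM after chemotherapy, a log2 change of -2.5 (adjusted p = 0.0127) with no overlap. Ctla4 was at 0.174, 0.0961, 1.97 and 0.419 CPM and then at 0.0488, 0.103 and 0.154 CPM, with overlap (-2.68, adjusted p = 0.0286). In T11-APOBEC, where 3.48% of genes were called, Cd274 was higher after chemotherapy, at 19.8, 33.8 and 129 CPM after 15.5, 23.1 and 13.6 CPM (1.73, adjusted p = 0.0265). The arms overlapped, and without the tumour at 129 CPM the change was 0.41 (adjusted p = 0.973).

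**Figure D4:**
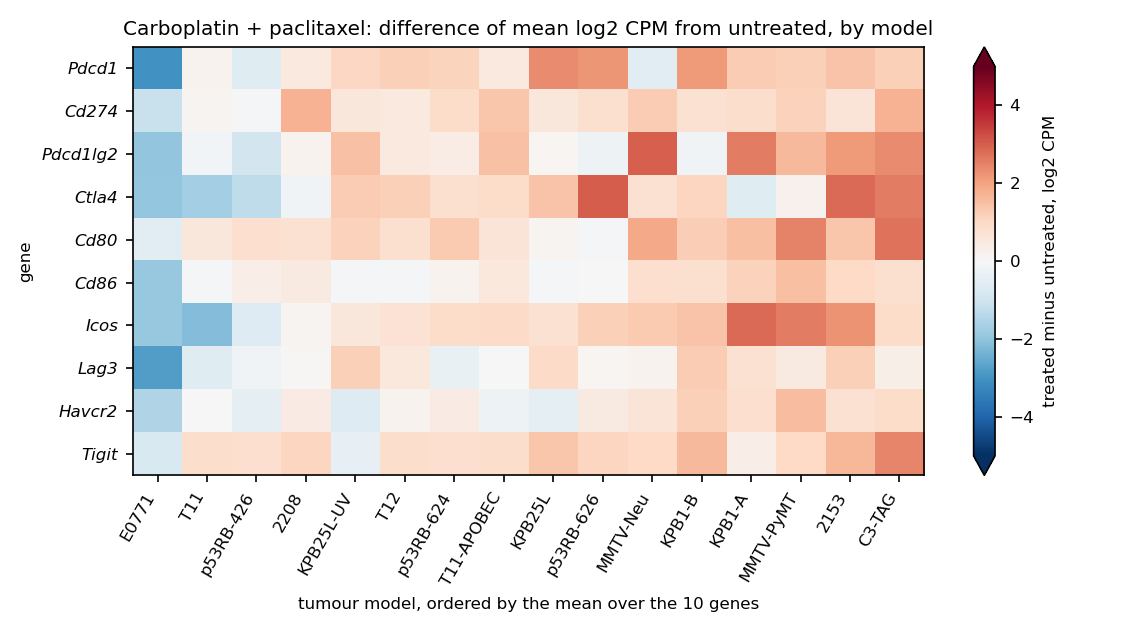
Difference of mean log2 CPM between tumours given carboplatin plus paclitaxel and untreated tumours, for each gene in each of 16 models, ordered by the mean over the 10 genes. E0771, with a single untreated tumour, is lower in all 10 genes, and C3-TAG, 2153, MMTV-PyMT and KPB1-A stand at the high end.

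After anti-PD1 plus anti-CTLA4, which block the products of Pdcd1 and Ctla4, 3 of the 10 genes were higher than in untreated tumours (36 and 41 tumours of 12 models), namely Cd274, Lag3 and Icos. Of 18371 genes, 5.73% were called higher and 10.7% in either direction. Cd274 had medians of 7.81 and 5.14 CPM and rose by 0.69 ± 0.129 (SE, adjusted p = 0.000187, higher in 11 of 12 models). In 2208 its treated tumours had 27.3, 15.5 and 16.9 CPM. The untreated ones had 7.22, 7.46 and 7.74 CPM, below every tumour of that model under any treatment. In p53RB-426 the values were 12.3, 17.1 and 25.6 against 8.2, 7.28 and 6.57 CPM. The arms did not overlap in these models, nor in KPB1-A, p53RB-626 and T12, and the exception was 2153, at 1.89, 10.7 and 3.19 against 6.85, 4.17 and 9.18 CPM.

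Lag3 rose by 0.44 ± 0.118 (adjusted p = 0.0109, 8 of 12 models), most in T12, and Icos rose by 0.76 ± 0.243 (adjusted p = 0.0318, 9 of 12 models), most in KPB1-A. The targeted receptors themselves did not pass the test, with Pdcd1 at 0.63 ± 0.247 (adjusted p = 0.0845) and Ctla4 at 0.4 ± 0.258 (adjusted p = 0.335). Cd80 had a change of 0 ± 0.187 (adjusted p = 0.994). Of 10 T cell genes 2 rose, of 10 CD8 and NK cell genes 1 (Prf1, 0.87), and of the 10 interferon gamma axis genes tested 2, Gbp2 (0.62) and Cmtm6 (0.21), whose product stabilises PD-L1. None of 17 other genes of the B7, CD28, nectin and TIM families was called. All 10 muscle genes were lower in antibody-treated tumours (median log2 change -3.28), and the part of that difference in these results was not tested.

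In the 3 models whose arms lay close in library number (C3-TAG, MMTV-Neu and MMTV-PyMT), 0 of the 10 genes and 2 of 18050 genes were called, with Cd274 at 0.46 (adjusted p = 0.405). Over all models limma on 1 difference per model called 0 of the 10 and 0 of 18371 genes, with 4 and 1713 at an unadjusted p under 0.05. Without replicate 1, 2 or 3 of each group only Cd274 stayed called, and Icos was lost without KPB1-A, p53RB-626 or T12 and Lag3 without p53RB-426.

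The response to the antibodies differed between models for Ctla4, Cd80, Cd86, Lag3 and Icos (5 of 10, against 55.2% of all genes). Within single models 5 of 110 tests of the 10 genes were called (4.55%), against 3.08% over all genes. In T12, where 12.8% of genes were called, Lag3 was at 1.18, 2.94 and 5.43 CPM in untreated and 9.9, 12.9 and 8.13 CPM in treated tumours (log2 change 1.68, adjusted p = 0.00378), and Cd86 at 10.4, 17 and 15.8 and then 29.2, 32.6 and 29 CPM (1.05, adjusted p = 0.0407). Neither overlapped, and Csf1r was 331, 412 and 480 CPM in the untreated and 623, 812 and 736 CPM in the treated tumours.

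In p53RB-626 (2.42% of genes called) Ctla4 was at 17.4, 3.05 and 8.84 CPM after antibodies, all above the untreated maximum of 2.47 CPM (2.47 on the log2 scale, adjusted p = 0.0205). In the same treated tumours Havcr2 reached 80.5, 45.7 and 98.4 CPM and Icos 20.3, 6.84 and 15.2 CPM, without passing the test in this model. Their Cd3e was 5.69, 2.79 and 1.78 CPM, so the tumour with the most Ctla4 and Icos lay above the untreated Cd3e range of 1.46 to 3.57 CPM. In KPB1-A (2.55% of genes called) Icos rose from 0.0547, 0.048 and 0.0619 to 0.0947, 1.44 and 0.343 CPM (3.5, adjusted p = 0.00919), and without replicate 2 the change was 1.87 (adjusted p = 0.527). In C3-TAG (0.474% of genes called) Cd80 was called lower, from 1.63, 6.83, 5.73 and 35.5 to 1.02, 5.14 and 2.14 CPM, with overlap (-2.15, adjusted p = 0.0147). The untreated mean rested on the tumour at 35.5 CPM, and the other untreated tumours lay at 1.63 to 6.83 CPM.

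E0771 held the highest levels of Pdcd1, Ctla4, Lag3 and Icos in the series, in 1 antibody-treated tumour. Pdcd1 was at 6.69, 11 and 49 CPM, Ctla4 at 3.3, 5.96 and 24.8 CPM, and Lag3 at 13.3, 15.5 and 58.2 CPM in its 3 treated tumours. The summed T cell genes of the same tumours were 83, 112 and 549 CPM. The other two treated tumours lay below the single untreated one for Pdcd1 (13.6 CPM) and Lag3 (20.8 CPM).

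With trametinib, Cd274 was the only gene of the 10 that rose (48 treated and 54 untreated tumours of 16 models), against 17.3% of 18014 genes called higher and 36.9% called in either direction. Its medians were 9.8 and 6.35 CPM and its log2 change 0.68 ± 0.124 (SE, adjusted p = 7.23e-06, higher in 11 of 16 models), and all treated tumours exceeded all untreated ones in 2208, MMTV-Neu, MMTV-PyMT, C3-TAG, KPB25L-UV, T11 and 2153. In 2208 the treated tumours had 36, 30.3 and 44.5 CPM and the untreated ones 7.22, 7.46 and 7.74 CPM, a log2 change of 2.41 ± 0.514 (SE, adjusted p = 0.00017). The untreated tumours of 2208 were also below every tumour given chemotherapy (14.1 to 53.8 CPM), antibodies (15.5 to 27.3 CPM) or erlotinib (16.4 to 26.6 CPM). The trametinib and untreated arms of 2208 lay more than 100 library numbers apart. In that model 12.2% of 28928 genes were called, the summed T cell genes were 3.75, 5.44 and 4.88 CPM against 5.9, 5.42 and 8.42 CPM untreated, and the macrophage sum was 786, 1110 and 1010 against 1280, 1290 and 1510 CPM. Cd80 moved in the opposite direction in the same tumours, from 1.58, 1.53 and 1.86 to 0.302, 0.448 and 0.463 CPM (-1.93 ± 0.564, adjusted p = 0.0101).

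In MMTV-Neu (22.3% of genes called) Cd274 was at 42.9, 8.64 and 5.1 CPM after 4, 3.63 and 2.09 CPM untreated (2.56 ± 0.519, adjusted p = 3.61e-05), with Cd80, Cd86 (1.31, adjusted p = 0.0048) and Havcr2 (1.31, adjusted p = 0.000868) higher as well. The macrophage sum was 344 to 616 CPM untreated and 1040 to 1320 CPM treated, without overlap. In MMTV-PyMT (27.4% of genes called) it was at 9.22, 4.07 and 2.53 after 1.81, 1.53 and 1.4 CPM (1.7 ± 0.511, adjusted p = 0.00598). The values of Cd274 did not overlap in either model, but 1 tumour stood far above the others in each. Without replicate 1 the adjusted p of Cd274 was 0.0822 in MMTV-Neu and 0.126 in MMTV-PyMT.

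**Figure D5:**
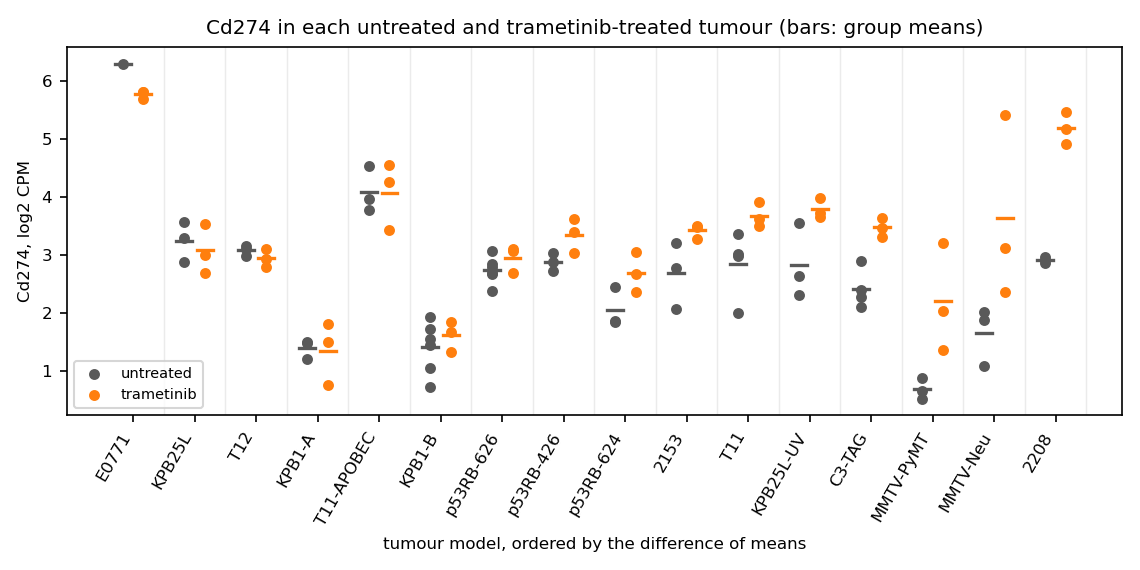
Cd274 in log2 CPM in every untreated (grey) and trametinib-treated (orange) tumour of 16 models, with bars at the group means and models ordered by the difference of means. The largest difference is in 2208 (2.28), whose untreated tumours lay below all its treated ones under any treatment. The lowest is in E0771 (-0.53), whose untreated group is 1 tumour.

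Of the receptors, Ctla4 had a pooled change of -0.47 ± 0.222 with trametinib (adjusted p = 0.0888, lower in 11 of 16 models), Pdcd1 one of 0.35 ± 0.201 (adjusted p = 0.163), and Lag3, Havcr2, Tigit and Icos lay between -0.21 and 0.1. Cd80 had a change of -0.3 ± 0.14 (adjusted p = 0.0814). Ctla4 was called lower in the 11 models whose arms lay close in library number (-0.73, adjusted p = 0.0185, beside 6762 of 17506 genes called) and with edgeR's bias-adjusted quasi-likelihood test (-0.62, adjusted p = 0.00827), a setting chosen after seeing the data. For Cd274 the change was 0.24 in those 11 models and 1.69 in the other 5, and it was called in both.

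The response to trametinib differed between models for 8 of the 10 genes, against 74.9% of all genes. Within single models 10 of 150 tests were called (6.67%), against 8.21% over all genes. In T11, where 12.8% of genes were called, Pdcd1 and Lag3 rose. Pdcd1 was at 0.325, 0.128, 0.926 and 0.314 CPM untreated and at 1.8, 3.86 and 1.92 CPM treated (2.58 ± 0.811, adjusted p = 0.0191), and Lag3 at 3.72, 2.5, 4.27 and 2.93 and then 6.07, 8.2 and 9.69 CPM (1.26, adjusted p = 0.0233). Neither overlapped. Cd3e moved with them, from 0.986, 0.384, 2.87 and 0.996 to 2.92, 5.84 and 4.86 CPM.

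Of 17 tested genes of the B7, CD28, nectin and TIM families 6 rose with trametinib, beside 17.3% of all genes called higher and 36.9% called in either direction. Vtcn1, which encodes the inhibitory ligand B7-H4, was at 0.83 (adjusted p = 0.000977), Cd96 at 0.51 (adjusted p = 0.00668), Cd160 at 0.58, Cd226 at 0.57, Cd28 at 0.47 and Lgals9 at 0.22. Of 10 interferon gamma axis genes 2 rose, among them Gbp2 (0.53). Of 10 T cell genes 3 rose (Cd3e 0.56, adjusted p = 0.0326) and 1, Lck, fell (-0.3). Of 10 macrophage genes 3 fell, among them Csf1r (-0.4, adjusted p = 0.000278), and 3 dendritic cell genes fell.

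With erlotinib, edgeR's quasi-likelihood test called none of the 10 genes over 16 models, against 5.73% of 17954 genes. At an unadjusted p under 0.05 there were 3, Cd274 (log2 change 0.37, adjusted p = 0.108), Lag3 (0.35, adjusted p = 0.108) and Cd86 (0.29, adjusted p = 0.206), and DESeq2 called 0 of the 10 as well. None of the other B7, CD28, nectin and TIM genes and none of the interferon gamma axis was called. All 10 changes differed between models, against 72.2% of all genes.

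Within single models 14 of 150 tests were called with erlotinib (9.33%, against 6.48% over all genes), and 9 of them were in MMTV-Neu, where 37% of genes were called. Cd274 was there at 5.22, 60.7 and 63.1 CPM after 4, 3.63 and 2.09 CPM untreated (3.71 ± 0.544, adjusted p = 2.01e-09), and Cd86 at 7.89, 48 and 26.4 after 1.88, 3.33 and 2.07 CPM (3.49 ± 0.404, adjusted p = 7.49e-14). Havcr2 was at 19.3, 52.6 and 54.4 after 3.57, 7.85 and 4.03 CPM (3.02 ± 0.341, adjusted p = 1.89e-14). The arms did not overlap in these genes, and the first treated tumour stood nearest to the untreated ones. In the 3 treated tumours the summed B cell genes were 16.6, 110 and 99.7 CPM, the macrophage sum 1230 CPM in the first and up to 6700 CPM in the others, Epcam 1070, 65.9 and 504 CPM, and the muscle sum 4.43, 16100 and 280 CPM. Ctla4 (0, 5.94 and 0.229 CPM) rested on the second tumour, without which its change was 2.6 (adjusted p = 0.227).

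In MMTV-PyMT, where 23.4% of genes were called with erlotinib, Cd86 was at 8.11, 8.42 and 8.9 CPM after 1.71, 2.09 and 2.49 CPM untreated (1.94, adjusted p = 2.89e-05), and Havcr2 at 10.7, 10.9 and 9.8 after 2.95, 3.03 and 5.01 CPM (1.44). Cd80 was at 1.42, 1.12 and 1.2 after 0.315, 0.365 and 0.475 CPM (1.61), and Icos was called too (3.35). None of the arms overlapped, and the treated tumours lay close together in Cd86, Havcr2 and Cd80. Icos ran from 0.3 to 0.636 CPM with erlotinib, and its untreated tumours held only 3, 3 and 2 counts (0.0206 to 0.0522 CPM). The macrophage sum was 385 to 583 CPM untreated and 823 to 1130 CPM with erlotinib, also without overlap, and its part in these changes was not tested. The only lower call with erlotinib was Cd86 in 2153 (-1.52, adjusted p = 0.00983).

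Trametinib and erlotinib could be compared directly in 22 models (65 and 66 tumours), in which all arms lay within 100 library numbers. Of the 9 genes with enough counts, Pdcd1 was higher with trametinib (0.58 ± 0.203, adjusted p = 0.0264, 13 of 22 models), as was Cd274 (0.28 ± 0.107, adjusted p = 0.04, 17 of 22), and Cd80 was lower (-0.44 ± 0.116, adjusted p = 0.00289, lower in 17 of 22). Over 16778 genes 11.8% were called higher, 13.7% lower and 25.5% in either direction. For Cd80, every trametinib tumour was below every erlotinib tumour in 2208, 4T1, MMTV-PyMT and p53RB-426, and above in 2153 and T11. Of 10 CD8 and NK cell genes 5 were higher with trametinib, with Cd8a at 0.9, and of 10 macrophage genes 6 were lower, with Csf1r at -0.52. Of 16 other B7, CD28, nectin and TIM genes 3 were higher (Lgals9 0.26, Vtcn1 0.75, Cd96 0.42) and 3 lower (Cd200r1 -0.68, Vsir -0.2, Icosl -0.23), and 3 of the interferon gamma axis genes were higher.

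None of the 3 calls was kept by limma on 1 difference per model or without replicate 1 of each group, and with a looser filter on low counts only Cd80 was called. The limma test also called fewer of all genes than the 25.5% of 16778 in the main test. Leaving out replicates changed the number of all genes called as well, with the numbers given under the processing below. The lost calls are therefore not shown to be particular to these 3 genes. The difference between the drugs varied between models for 9 of 9 genes, against 68.7% of all genes.

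Antibodies and chemotherapy could be compared in 16 models (48 and 48 tumours). Cd80 was lower with the antibodies, with medians of 1.22 and 3.54 CPM (-1.24 ± 0.203, adjusted p = 1.63e-05, lower in 13 of 16 models), and so were Tigit, with medians of 0.28 and 1.04 CPM (-0.86 ± 0.25, adjusted p = 0.01), and Havcr2 (-0.39 ± 0.131, adjusted p = 0.0296). Over 18705 genes 9.78% were called lower and 18% in either direction. Cd80 was lower in every antibody-treated tumour than in every chemotherapy-treated one in C3-TAG, KPB1-B, MMTV-Neu, MMTV-PyMT, p53RB-624, 2250 and 4T1. In 2250, a model without untreated tumours, its mean was 0.916 ± 0.165 CPM with antibodies and 5.1 ± 2.58 CPM with chemotherapy (SD, n = 3 each).

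Of 10 macrophage genes 5 were lower with the antibodies, as were 3 dendritic cell genes (Flt3 -0.84), 4 CD8 and NK cell genes and all 10 muscle genes (median -2.19). Of the other pathway genes Cd200r1 (-0.9), Cd244a (-0.58) and Icosl (-0.28), the ligand of ICOS, were lower. In the 5 models whose arms lay close in library number none of the 10 genes and 0 of 18288 genes were called, with 9 and 3297 at an unadjusted p under 0.05, and limma on 1 difference per model called 0 of the 10 and 0 of 18705 genes (2 and 2663 at an unadjusted p under 0.05). Cd80 alone stayed called without replicate 1 or without replicate 3, and with Tigit without replicate 2. The difference varied between models for 9 of 10 genes, against 75.5% of all genes.

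T11-APOBEC and KPB25L-UV were compared with T11 and KPB25L arm by arm, and 8 of the 80 tests of the 10 genes were called, against 2.11% of the tests over all genes. Of these, 7 were in the chemotherapy arm of T11-APOBEC against T11, where 7.67% of genes were called. Markers of other cells also separated these arms without overlap, with a macrophage sum of 2640 to 3310 CPM in T11-APOBEC and 1580 to 1990 CPM in T11, and a neutrophil sum of 93.6 to 114 and 267 to 404 CPM, and their part was not tested. Cd274 had 19.8, 33.8 and 129 CPM in T11-APOBEC and 7.95, 6.68 and 9.3 CPM in T11 (log2 difference 2.87, adjusted p = 2.55e-05), with no overlap. Pdcd1lg2 (5.46 ± 4.5 and 0.168 ± 0.0595 CPM, SD, n = 3 each), Icos (2.96 ± 1.64 and 0.198 ± 0.0382 CPM), Ctla4 (1.82 ± 1.12 and 0.102 ± 0.0527 CPM) and Lag3 (6.95 ± 1.1 and 2.16 ± 0.432 CPM) were higher too, as were Cd86 (1.21) and Pdcd1 (2.56). Untreated Cd274 was 17.4 ± 5.02 CPM in T11-APOBEC and 7.55 ± 2.63 CPM in T11 (SD, n = 3 and 4, adjusted p = 0.255), and none of the 10 was called untreated.

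The remaining call was Tigit with erlotinib in KPB25L-UV against KPB25L (0.47% of genes called). KPB25L-UV had 12.1, 86.6 and 5.03 CPM, of which 86.6 CPM was the highest Tigit level in the series, and KPB25L had 7.34, 3.35 and 1.65 CPM. The values overlapped, and without replicate 2 the difference was 0.96 (adjusted p = 1). The tumour with 86.6 CPM had summed T cell genes at 12.1 CPM and Epcam at 915 CPM. Without replicate 1, 2 or 3 of each group, 6, 4 and 2 of the 8 calls of this family of tests were made.

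To set the treatment changes beside the T cell content, each model's change was also taken relative to the mean change of the 10 T cell genes and tested by sign-flip permutation over models. None of the 10 genes was called with any treatment, against 0.255% of genes with trametinib and 0% with erlotinib, chemotherapy or antibodies. The smallest permutation p possible was 3.05e-05 over 16 models and 0.000488 over the 12 models of the antibodies. A single gene at that floor would not pass adjustment over all genes. The lack of calls therefore cannot show that a gene followed the T cell genes. With chemotherapy Cd80 was 0.51 ± 0.256 above the T cell genes (SE over 16 models, two-sided permutation p = 0.0661, adjusted p = 0.24), and Lag3 was 0.35 below them (-0.35, permutation p = 0.0273, adjusted p = 0.24). With trametinib Pdcd1lg2 was below them (-0.49, permutation p = 0.0113, adjusted p = 0.293, lower in 13 of 16 models), as were Cd80 (-0.55, permutation p = 0.038, adjusted p = 0.458) and Tigit (-0.49, permutation p = 0.0489, adjusted p = 0.495). Cd274 was 0.36 above them (permutation p = 0.276, adjusted p = 0.601, higher in 8 of 16 models). With erlotinib Pdcd1 was below them (-0.32, permutation p = 0.0389, adjusted p = 1).

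Across 307 tumours, after removal of the means of 98 groups, all 45 pairs of the 10 genes were positively correlated, from r = 0.35 to 0.74 with a median of 0.47, highest between Cd86 and Havcr2. These points share libraries, so the values are descriptions. With marker lists, Cd86 (r = 0.82) and Havcr2 (0.75) followed the macrophage genes most closely, Icos (0.79) and Pdcd1 (0.75) the T cell genes, and Cd274 the interferon gamma axis (0.73). Ctla4 had r = 0.61 with the regulatory T cell list and 0.5 with the T cell genes, and Icos had 0.77 with the regulatory list. With the epithelial list every gene lay between -0.07 and 0.21 within groups. Over the 16 untreated model means, Pdcd1 (0.93) and Icos (0.92) followed the T cell list and Havcr2 the macrophage list (0.93). Lag3 (0.28) and Ctla4 (0.48) followed the T cell list less closely. The regulatory T cell list gave r = 0.96 for Icos, 0.88 for Pdcd1, 0.68 for Ctla4 and 0.33 for Lag3 over these means. With the epithelial list the same model means gave r from -0.73 for Cd274 and Havcr2 to 0.02 for Lag3.

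The same correlation was used to name the genes most like each of the 10 within groups, among 12756 genes whose log2 CPM averaged 0 or more, with the 10 themselves and predicted genes left out. Some of the 10 were closer to each other than to these, such as Cd80 to Cd86 (r = 0.69) and Ctla4 to Icos (0.59). Markers outside the genes compared could also be closer, such as Cd3e to Pdcd1 (0.68) and Foxp3 to Icos (0.73). For Pdcd1 the genes named were Il2rb (r = 0.73), AW112010 (0.69) and Trac (0.64). For Icos they were Il2rb (0.79), Il2ra (0.72) and Gimap3 (0.72), and for Tigit Rasa4 (0.58), Il2rb (0.51) and Lat2 (0.5). For Ctla4 the likeness was lower, with Gpr132 (0.56), Fpr2 (0.54) and Lck (0.52). For Lag3 they were Arl5c (0.74), Cxcl16 (0.74) and H2-Ab1 (0.73), and for Havcr2 Mpeg1 (0.81), Nckap1l (0.79) and Cd84 (0.78). Among the ligands, Cd274 was most like Tor3a (0.78), Gbp2 (0.76) and Irgm2 (0.76), Pdcd1lg2 like Cd52 (0.74), Cd80 like Lat2 (0.67), Fcgr3 (0.66) and Bcl2a1b (0.66), and Cd86 like Ctss (0.82), Cd83 (0.81) and Il10ra (0.81).

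Of the models without untreated tumours, 4T1 had high Cd274 in every arm, with 41.2 ± 13.6 CPM with antibodies, 28.5 ± 2.46 with chemotherapy, 22.5 ± 1.38 with erlotinib and 21.2 ± 2.33 with trametinib (SD, n = 3 each). The lowest were 2336 with erlotinib (0.87 ± 0.234 CPM) and 2225 with trametinib (0.973 ± 0.499 CPM).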

How the data were processed

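Per the labels, RNA came from cryopreserved tumours and libraries from a TruSeq mRNA kit. Per the submitters' processing notes, the authors used STAR, SAMtools, Picard and Salmon on mm10; their versions were not stated in the notes used here. The deposited table holds the authors' estimated counts, unscaled, of which 8.35% were not whole and were rounded here. The authors' second deposited table holds a normalized signal, in which each library's estimated counts were scaled to an upper quartile (percentile 75) of 1000.

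Groups of tumours follow the model and treatment in the titles. No 2 libraries were identical among 355 replicate pairs. Low counts were removed with filterByExpr, libraries scaled by trimmed means, and treatments tested over models with edgeR 4.0.16 (quasi-likelihood, model as a factor; R 4.3.3, limma 3.58.1), with a prior count of 2 for log2 values. Single models were tested in 1 fit over all groups, for models with at least 2 tumours in each arm. Calls were made at an adjusted p under 0.05 (Benjamini-Hochberg, over all genes tested). The pooled test over models, the single-model contrast and the sign-flip test were tried on simulated data, and the other tests were not. Alternatives were RLE scaling, a looser filter (1 count in 2 tumours), DESeq2 1.42.0, limma on the normalized table or on 1 difference per model, covariates, subsets by library number, untreated tumours of the labelled set, and leaving out replicates or models.

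The 10 genes, the lists and the tests were chosen with earlier results of these data known. The lists were other B7, CD28, nectin and TIM genes, the interferon gamma axis, T cells, CD8 and NK cells, regulatory T cells, exhaustion factors, macrophages, dendritic cells, B cells, neutrophils, epithelial cells and muscle. Named were the 10 genes in every comparison, single-model changes that were called (at most the 3 with the smallest p per gene, others where a left-out tumour decided them), called genes of the first list, up to 2 of other lists, and Cd3e, Cd8a, Foxp3, Ifng, Csf1r and Flt3. A gene of the interferon gamma axis that this rule names is not reported here.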

Additional observations from a re-analysis of the deposited data

Results flagged for a closer look

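In the 6 untreated tumours of KPB1-B, Pdcd1lg2 stood far above the others in replicate 3, at -0.15 log2 CPM (0.875 CPM), with the next tumour at -2.65 log2 CPM. Groups of 4 to 10 tumours gave 50 such checks, and this was the 1 tumour that stood apart. Chance alone marks about 1 in 20 groups.

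The other results to look at again are changes that differed between models. They come from an F-test of the interaction between model and treatment, with edgeR's quasi-likelihood test and Benjamini-Hochberg adjustment over all genes. Such differences were common, called for 74.9% of all genes with trametinib, 72.2% with erlotinib, 64.1% with chemotherapy and 55.2% with the antibodies. The shares were 68.7% between trametinib and erlotinib and 75.5% between antibodies and chemotherapy. With trametinib the adjusted p was 1.12e-05 for Cd274, 1.96e-05 for Havcr2, 0.000367 for Icos, 0.000456 for Pdcd1, 0.000502 for Cd86, 0.00231 for Lag3, 0.00875 for Cd80 and 0.0221 for Ctla4. With erlotinib it was 1.32e-09 for Havcr2, 2.46e-09 for Cd86, 2.82e-07 for Icos, 1.06e-06 for Cd80, 1.64e-06 for Cd274, 0.000879 for Ctla4, 0.000894 for Tigit, 0.00198 for Pdcd1lg2, 0.00713 for Pdcd1 and 0.0102 for Lag3. With carboplatin plus paclitaxel it was 0.000709 for Icos, 0.00125 for Havcr2, 0.00141 for Pdcd1lg2, 0.00287 for Ctla4 and 0.024 for Lag3. With the antibodies it was 0.0225 for Cd80, 0.0268 for Cd86, 0.0386 for Ctla4 and for Lag3, and 0.0428 for Icos.

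The difference between trametinib and erlotinib varied between models with an adjusted p of 1.07e-10 for Cd86, 2.42e-08 for Lag3, 3.3e-07 for Havcr2, 1.43e-06 for Icos, 0.000205 for Ctla4, 0.000261 for Pdcd1, 0.000419 for Tigit, 0.000887 for Cd80 and 0.046 for Cd274. The difference between antibodies and chemotherapy varied with an adjusted p of 6.81e-07 for Lag3, 1.52e-05 for Cd86, 3.1e-05 for Havcr2, 0.000127 for Pdcd1lg2, 0.000357 for Cd80, 0.000525 for Ctla4, 0.0101 for Pdcd1, 0.0117 for Tigit and 0.0176 for Icos.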

How the results depend on the processing

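No paired analysis was possible because the labels give the tumours no replicate numbers that groups share. With 1 difference per model (limma), the number of genes called went from 6640 to 1568 for trametinib, 1028 to 0 for erlotinib, 4468 to 0 for chemotherapy, 1970 to 0 for antibodies and 3375 to 0 for antibodies against chemotherapy, and was 377 for trametinib against erlotinib. In models with arms within 100 library numbers it was 1623 for chemotherapy, 2 for antibodies and 0 for antibodies against chemotherapy, and in the other models 4118 for trametinib and 4852 for antibodies. Genes whose change differed between models went in the near models from 13561 to 8288 (trametinib), 13002 to 8386 (erlotinib), 11850 to 2176 (chemotherapy), 10167 to 26 (antibodies) and 14116 to 686 (antibodies against chemotherapy), where fewer models entered. With the untreated tumours of the labelled set the number of genes called was 1750 for chemotherapy and 940 for antibodies. With the T cell covariate it was 1849 for erlotinib and 1919 for chemotherapy, and with the macrophage covariate 534 for erlotinib, 2045 for chemotherapy and 6650 for trametinib against erlotinib. The authors' normalized values gave 2768 called genes for erlotinib, and edgeR's bias-adjusted test, chosen after seeing the data, 1790. Leaving out a replicate of every group or a model gave 54 (without replicate 3) to 1332 genes for erlotinib, 1775 (without replicate 1) to 5451 for chemotherapy, 183 (without replicate 1) to 3388 (without MMTV-PyMT) for antibodies, 1692 (without replicate 2) to 5069 for trametinib against erlotinib and 385 (without replicate 3) to 4171 for antibodies against chemotherapy. It gave 42 to 46 single-model calls of the 10 genes (67 in full) and 2 to 6 calls between related models (8 in full). On the normalized table the share of higher calls was 11.1% with erlotinib (41.4% in the main test), 87.4% with chemotherapy (58.7%), 77.7% with antibodies (53.4%), 66.8% for trametinib against erlotinib (46.2%) and 28.7% for antibodies against chemotherapy (45.8%).

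Directions of the 10 genes turned as follows. Each turned value had an adjusted p above 0.05, except Cd86 between trametinib and erlotinib. With trametinib: T cell covariate Havcr2 -0.02, Icos -0.14 and Lag3 -0.05; near models Havcr2 -0.09 and Icos -0.16; other models Ctla4 0.02, Lag3 -0.09 and Tigit 0.24; labelled set Icos -0.01; bias-adjusted test Icos -0.18; leave-outs Icos -0.02 to 0.26; and relative to Cd3e alone Pdcd1 -0.28. With erlotinib: near models Cd274 -0.06, Havcr2 -0.05, Icos -0.34 and Pdcd1lg2 -0.6; other models Ctla4 1.27, Pdcd1 0.22 and Tigit 0.73; T cell covariate Ctla4 0.12; macrophage covariate Cd80 -0.15, Icos -0.22 and Pdcd1lg2 -0.17; bias-adjusted test Icos 0 and Pdcd1lg2 -0.06; normalized table Pdcd1lg2 0; without tumours high in muscle Pdcd1lg2 0; leave-outs Cd80 -0.13 to 0.15, Ctla4 -0.33 to 0.31, Icos -0.15 to 0.32, Pdcd1lg2 -0.21 to 0.42 and Tigit -0.27 to 0.1. Relative to Cd3e alone Ctla4 was at -0.07 and Pdcd1lg2 at -0.01, and with a prior count of 0.5 Ctla4 relative to T cell markers was 0. With chemotherapy Lag3 was -0.08 under the T cell and -0.01 under the macrophage covariate. With antibodies: near models Cd86 -0.02, Ctla4 -0.06, Lag3 -0.03, Pdcd1 -0.09 and Tigit -0.12; T cell covariate Cd86 -0.01, Havcr2 -0.02 and Tigit -0.04; Cd80, at 0, moved to 0.02 (limma on differences, normalized table and looser filter), 0.1 (other models), 0.01 (labelled set) and -0.08 to 0.19 (leave-outs), and Pdcd1lg2 relative to Cd3e was -0.01. Between trametinib and erlotinib the macrophage covariate gave Cd86 0.16 (adjusted p = 0.0111), Ctla4 0.19, Havcr2 0.07, Icos 0.36, Lag3 0.01 and Tigit 0.05, and leave-outs gave Icos -0.23 to 0.09. Between antibodies and chemotherapy it gave Cd274 0.13, Cd86 0.02, Icos 0.08, Pdcd1 0.05 and Pdcd1lg2 0.49; near models gave Lag3 -0.93, other models Pdcd1lg2 0.02, and leave-outs Lag3 -0.1 to 0.23 and Pdcd1lg2 -0.72 to 0.04. In KPB1-A under chemotherapy leave-outs (lowest without replicate 1) gave Cd274 -0.36 to 2.66, Lag3 -0.16 to 2.01, Pdcd1 -0.38 to 4.01 and Pdcd1lg2 -1.65 to 8.89. Apart from fewer models or tumours, the cause was not tested. Low counts limit Pdcd1lg2, Tigit, Ctla4, Icos and Pdcd1, and many models have 3 tumours an arm.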

Other observations

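KPB25L-APOBEC has a single untreated tumour and no treated ones, so it entered no comparison. Its Ctla4 was 3.1 CPM and its Tigit 4.13 CPM. Pdcd1 was 1.41 CPM, Icos 3.18, Lag3 8.86 and Havcr2 11.9 CPM, and among the ligands Cd274 was 7.15 CPM, Pdcd1lg2 0.934, Cd80 4.07 and Cd86 14.7 CPM.

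The labels give a median survival for each model and arm. Over 12 models it rose from 25 to 70 days with the antibodies in E0771 (ratio 2.8), from 29 to 44 days in MMTV-Neu (1.52) and from 28 to 41.5 days in C3-TAG (1.48), and went from 12 to 10 days in p53RB-626 (0.833). Untreated Cd274 had a Pearson correlation of 0.65 with the log2 ratio and a Spearman rho of 0.05. Without E0771 and MMTV-PyMT, the models farthest from the median of Cd274, r was -0.39, so the relation rested on those models. For Pdcd1 the values were 0.51, 0.09 and, without E0771 and KPB1-B, -0.15. The other genes of the 10 had r from 0.04 (Havcr2) to 0.51 (Tigit). Among T cell markers Cd8a had 0.73, 0.46 and, without E0771 and KPB1-A, 0.24, and Cd3e had 0.53, 0.04 and -0.08. These are descriptions over 12 models, and E0771 entered with a single untreated tumour.

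The counts below stand beside shares of all genes called in either direction. These were 36.9% with trametinib, 5.73% with erlotinib, 24.3% with chemotherapy and 10.7% with antibodies. They were 25.5% between trametinib and erlotinib and 18% between antibodies and chemotherapy. Of 7 exhaustion factors 2 fell with trametinib (Entpd1, Tcf7) and 0 were called with erlotinib. With chemotherapy 2 rose (Prdm1, Entpd1) and 1 fell (Nr4a2), and with the antibodies 1 rose (Prdm1). Of the exhaustion factors 1 was lower with trametinib than with erlotinib and 3 were lower with antibodies than with chemotherapy. Of 8 regulatory T cell genes 1 rose with trametinib (6 tested) and 1 with the antibodies (7 tested), in each case Tnfrsf9, and 1 fell with erlotinib (Tnfrsf18). Of 8 dendritic cell genes 2 rose with chemotherapy, 1 with the antibodies (Itgax), and 1 was lower with trametinib than with erlotinib. Of the B cell genes 3 were tested against untreated tumours, and 1 rose with trametinib, 1 with erlotinib (Cd22 in both) and 2 with chemotherapy, and 2 of 5 were lower with antibodies than with chemotherapy. Of 6 neutrophil genes 3 rose with chemotherapy and 1 with the antibodies (S100a9), 2 of 5 were lower with trametinib than with erlotinib, and 1 was higher with antibodies than with chemotherapy. Of 6 epithelial genes 2 fell with trametinib (Krt18, Cdh1) and 1 with erlotinib (Cdh1), 1 was lower with trametinib than with erlotinib and 1 higher with antibodies than with chemotherapy. Of 10 muscle genes 1 fell with chemotherapy and 0 were called with trametinib or erlotinib. Of 10 macrophage genes 1 rose with erlotinib and 0 were called with the antibodies.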
